A study of Homo sapiens with 12 samples.

Results

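The E2F and DP transcription factors were followed as a family of 10 genes, E2F1 to E2F8 and their dimerization partners TFDP1 and TFDP2. They were taken by gene symbol from a count table of 60612 named genes, and all 10 were among the 11803 genes that passed the filter on low counts and were tested. The table held 12 libraries of 3′ RNA-seq from CAMA-1, a luminal, oestrogen receptor (ER)-positive breast cancer cell line labelled wild type, with 3 replicates in each of 4 groups. The groups were DMSO (the vehicle), abemaciclib at 100 nM (an inhibitor of CDK4 and CDK6), fulvestrant at 5 nM (a degrader of ER) and both drugs together, whose doses the labels do not restate. The comparisons ask how each drug, alone and on top of the other, altered the transcripts of the family.

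E2F proteins bind DNA as dimers with a DP protein and switch on the genes of S phase entry, while the retinoblastoma protein Rb and its relatives p107 and p130 bind E2Fs and hold those genes down until cyclin-dependent kinases phosphorylate them. E2F1, E2F2 and E2F3 are the activators, bound by Rb. E2F4, E2F5 and E2F6 are the canonical repressors, of which the first pair work mainly with p107 and p130 and E2F6 acts without any pocket protein, and the atypical E2F7 and E2F8 bind DNA without a DP partner and shut down the same promoters late in the cycle.

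Each library held between 3299119 and 5164667 counts, so 1 count was worth 0.190 to 0.297 counts per 1e+06 counts (CPM). The replicate libraries differed by more than sampling noise, with a chi-square per degree of freedom from 1.85 to 14.3, and fulvestrant replicate 3 stood furthest from its group. All 7 luminal markers checked were present, from ESR1 at a median of 91.3 CPM to GATA3 at 3220 CPM. Of 8 markers of other cell types, 7 had at most 4 counts in any library, and COL1A1, a fibroblast collagen, lay between 14.3 and 26.0 CPM while its partner chain COL1A2 was at 0 in every library. COL1A1 was called higher with abemaciclib (0.45 on the log2 scale) and with fulvestrant (0.48), and its part in the results was not tested. The study's methods describe the libraries of a group as independent biological replicates of a single experiment. The test throughout was edgeR's quasi-likelihood test, two-sided, with Benjamini-Hochberg adjustment over all genes tested and a threshold of 0.05. Changes are log2 differences with a standard error (SE). That SE is the size of the change divided by the square root of the test's F statistic, and the intervals of changes rest on it. For large falls to few counts, as for E2F1 and E2F2 in the combination, this SE can be smaller than counting error alone. The SEs and intervals of such falls are too narrow.

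The members of the family changed unevenly in the drug groups. Against DMSO, abemaciclib lowered 6 of the 10 members (E2F1, E2F2, E2F6, E2F7, E2F8 and TFDP1) and raised 1, E2F5, where 20.7% of all genes tested were called lower and 20.5% higher. Fulvestrant lowered 7 members, the same 6 and E2F3, and raised 0, against 25.7% and 25.3% of all genes. Without fulvestrant replicate 3 it lowered 8, with TFDP2. The combination lowered 8, adding TFDP2, and raised 0, against 27.5% and 27.7%. E2F7 and E2F8 passed the filter on low counts only through the DMSO libraries, so their falls were fixed by it. Among the other 8 members 4, 5 and 6 fell. The median log2 change of all 10 members was -0.82, -1.19 and -1.18 in the 3 groups. These medians include E2F7 and E2F8, so they are lower than those of the other 8 members. The median of all genes tested was 0.00046, 0.0075 and 0.010 in the 3 comparisons. These 3 comparisons share the DMSO libraries. In bulk RNA, fewer cells expressing a gene and less RNA per cell cannot be told apart.

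**Figure D1:**
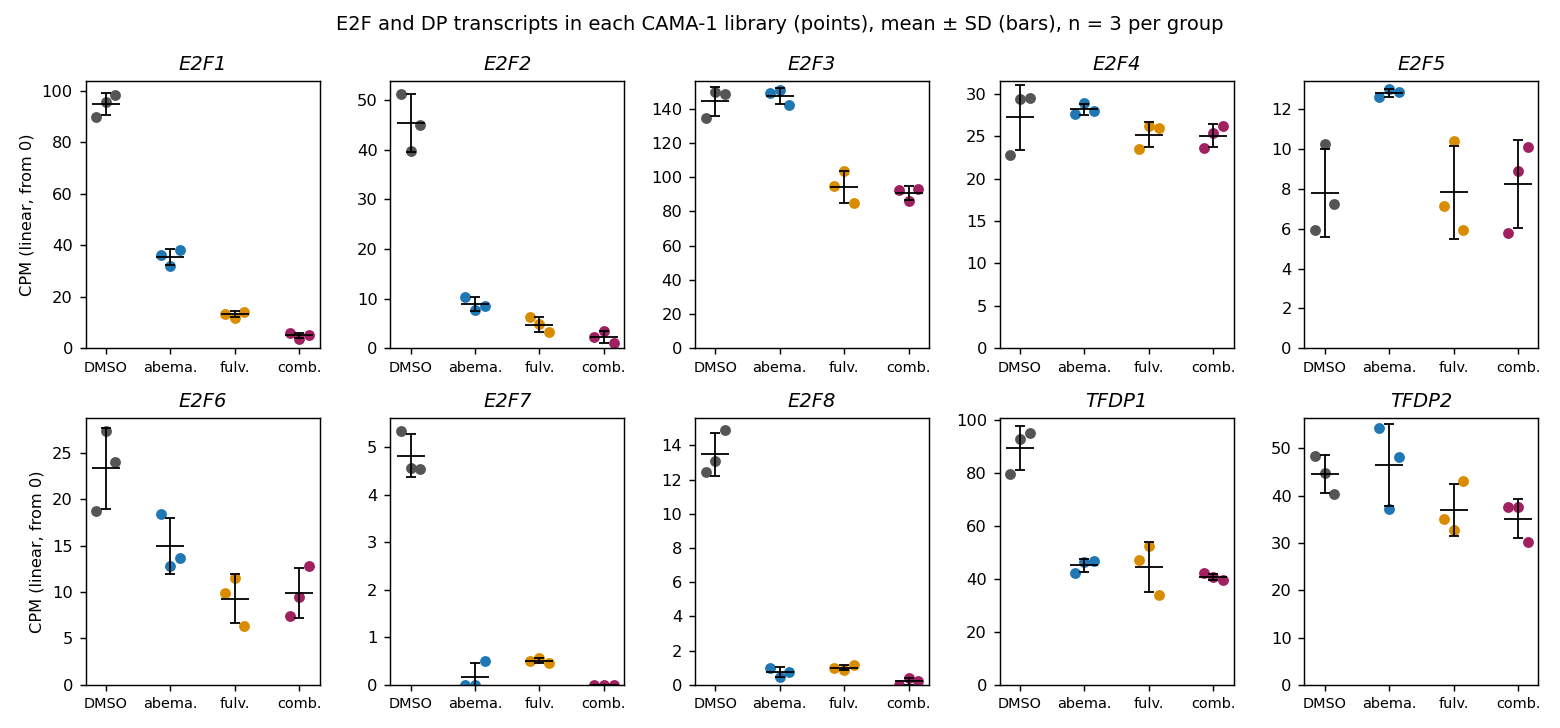
Level of each member in every library, in CPM on a linear axis from 0 (points), with the mean and SD of each group of 3 (bars). E2F1, E2F2, E2F7, E2F8 and TFDP1 are far below DMSO in all drug groups, E2F3 is lower in both groups that had fulvestrant, and E2F4 stays between 22.9 and 29.6 CPM throughout.

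The RefSeq promoter table (GRCh38.p14) held 8 of the 10 members, each with 250 bases before and 50 after the start site. An E2F-type site, taken as TTTCGCGC, TTTGGCGC, TTTCCCGC or TTTGCCGC on either strand, was found in E2F1, E2F2, E2F3 and TFDP1 and not in E2F4, E2F6, E2F7 or TFDP2. Such a site was held by 3.31% of all 35116 promoters listed, and in the S phase target genes described further on it was found in 11 of the 20 promoters matched (55%). The stretches below, which are the members with a site and, for contrast, E2F7, run 5′ to 3′ along the gene and stop before its annotated transcript, with the E2F-type letters in capitals. They lie at chr20:33686386-33686535 (minus strand, E2F1), chr1:23531234-23531383 (minus strand, E2F2), chr6:20401729-20401878 (plus strand, E2F3), chr13:113584603-113584720 (plus strand, TFDP1) and chr12:77065570-77065719 (minus strand, E2F7).
E2F1: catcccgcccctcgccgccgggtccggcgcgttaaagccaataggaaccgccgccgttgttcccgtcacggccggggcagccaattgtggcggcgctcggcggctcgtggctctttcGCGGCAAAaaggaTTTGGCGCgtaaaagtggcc
E2F2: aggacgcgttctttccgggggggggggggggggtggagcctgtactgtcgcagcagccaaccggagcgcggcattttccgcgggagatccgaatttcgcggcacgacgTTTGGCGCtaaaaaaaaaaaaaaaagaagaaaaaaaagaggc
E2F3: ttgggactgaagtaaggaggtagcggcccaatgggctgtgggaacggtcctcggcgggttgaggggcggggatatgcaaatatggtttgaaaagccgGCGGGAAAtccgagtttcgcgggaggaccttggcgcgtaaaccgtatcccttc
TFDP1: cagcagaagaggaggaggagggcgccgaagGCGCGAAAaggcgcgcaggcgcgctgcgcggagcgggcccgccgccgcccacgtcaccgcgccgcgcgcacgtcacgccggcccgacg
E2F7: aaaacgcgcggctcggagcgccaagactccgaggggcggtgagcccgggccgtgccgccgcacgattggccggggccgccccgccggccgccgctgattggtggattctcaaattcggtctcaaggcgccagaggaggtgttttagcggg

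E2F1 carried 2 such sites, at -33 to -26 (on the opposite strand) and -20 to -13 from its start site. The site of E2F2 lay at -42 to -35, that of E2F3 at -53 to -46 and that of TFDP1 at -120 to -113, the last 2 on the opposite strand. The CCAAT box, which recruits the factor NF-Y and was present in 34.6% of all promoters, occurred 3 times in E2F1, 4 times in E2F3, 4 times in E2F7 and 2 times in TFDP2 over the whole windows, counting both strands. TTTGAA, the core of the element that tethers the DREAM repressor complex, occurred in E2F3 and in 15.2% of all promoters. These are exact matches of the letters given, so other variants of a site would be missed, and binding was not measured in this experiment. With abemaciclib, 3 of the 4 members with a site fell (E2F1, E2F2 and TFDP1, not E2F3). With fulvestrant and with the combination all 4 did. Of those without one in this window, E2F6 fell in every drug group, E2F4 in none and TFDP2 only with the combination. E2F7 also has no site here, but its fall was fixed by the filter on low counts. The windows cover a single start site per gene, and 3′ counts do not separate transcripts from different start sites. A link between site and fall was not tested.

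Among the activators, E2F1 gave the most graded response. E2F1 (ENSG00000101412, chr20:33675477-33686385 in GRCh38 with GENCODE v44, minus strand) stood at 89.9, 95.6 and 98.4 CPM in the DMSO libraries, 36.0, 32.01 and 38.15 with abemaciclib, 13.3, 11.8 and 14.1 with fulvestrant and 5.77, 3.72 and 5.24 with the combination. No 2 groups overlapped. Its mean level was 37.4% of DMSO with abemaciclib, 13.9% with fulvestrant and 5.19% with both. The log2 changes were -1.42 ± 0.11 (SE, adjusted p = 8.67e-11), -2.85 ± 0.13 (4.48e-16) and -4.27 ± 0.15 (5.13e-19).

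E2F2 (ENSG00000007968, chr1:23506438-23531233, minus strand) was at 51.35, 39.7 and 45.1 CPM with DMSO, 10.4, 7.73 and 8.59 with abemaciclib, 6.18, 4.79 and 3.19 with fulvestrant and 2.17, 3.52 and 0.971 with the combination. The fulvestrant and combination libraries overlapped, and each drug group lay below DMSO. The log2 changes were -2.33 ± 0.20 with abemaciclib (adjusted p = 3.17e-10), -3.26 ± 0.23 with fulvestrant (2.49e-12) and -4.34 ± 0.25 with both (3.57e-14). The combination libraries held only 9, 17 and 5 E2F2 counts, so its level there rests on few reads.

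E2F3, the activator with the highest level in every group, located at chr6:20401879-20493714 on the plus strand (ENSG00000112242), behaved otherwise. Its DMSO libraries were at 134.5, 149.6 and 148.8 CPM, and those with abemaciclib, at 149.5, 150.8 and 142.3, lay in the same range. The difference was 0.03 ± 0.08 with a 95% interval from -0.14 to 0.20 (adjusted p = 0.807). With fulvestrant E2F3 was at 94.6, 103.5 and 85.0 CPM and with the combination at 92.6, 85.8 and 93.0, all below every DMSO and abemaciclib library. The log2 changes against DMSO were -0.62 ± 0.09 (adjusted p = 1.14e-06) and -0.68 ± 0.09 (1.99e-07).

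The canonical repressors moved in 3 different ways. E2F4 (ENSG00000205250, chr16:67192155-67198918, plus strand) was at 22.9, 29.5 and 29.6 CPM with DMSO, 27.6, 28.9 and 28.05 with abemaciclib, 23.5, 26.2 and 26.0 with fulvestrant and 23.6, 25.4 and 26.2 with the combination. Every drug group overlapped the DMSO range. All libraries with fulvestrant lay below the 3 with abemaciclib alone, a difference that the test did not call (adjusted p = 0.415 for fulvestrant and 0.359 for the combination). Its 95% intervals against DMSO ran from -0.24 to 0.30, -0.41 to 0.15 and -0.41 to 0.14 (adjusted p = 0.868, 0.449 and 0.412).

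E2F6 (ENSG00000169016, chr2:11444375-11466177, minus strand) was at 18.7, 27.4 and 24.0 CPM with DMSO, 18.4, 12.8 and 13.6 with abemaciclib, 9.88, 11.6 and 6.38 with fulvestrant and 7.46, 9.51 and 12.8 with the combination. The lowest DMSO library lay just above the highest abemaciclib library, and all 6 libraries with fulvestrant lay well under DMSO. The log2 changes were -0.65 ± 0.20 with abemaciclib (adjusted p = 0.0113), -1.37 ± 0.22 with fulvestrant (1.09e-05) and -1.23 ± 0.21 with both (2.03e-05). The abemaciclib call was lost without DMSO replicate 2 (-0.52), abemaciclib replicate 2 (-0.54) or abemaciclib replicate 3 (-0.59).

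E2F5, the least abundant canonical repressor, was the member that rose. Its DMSO libraries were at 5.94, 10.3 and 7.24 CPM and its abemaciclib libraries at 12.6, 13.0 and 12.9, with no overlap, a rise of 0.68 ± 0.24 (adjusted p = 0.0237). With fulvestrant it was at 7.17, 10.4 and 5.93 CPM and with the combination at 5.77, 8.89 and 10.1, overlapping DMSO in both (adjusted p = 0.890 and 0.851). The rise passed the threshold by little and was lost without DMSO replicate 1 (0.55), DMSO replicate 3 (0.62) or any 1 of the 3 abemaciclib libraries (0.67 to 0.70). Exons of E2F5 overlap those of genes on the opposite strand, RBIS among them, and the strand setting used in counting is not given in the sources used here.

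The atypical E2Fs fell to the edge of detection. E2F7 (ENSG00000165891, chr12:77021248-77065569, minus strand) had 18, 24 and 22 counts in the DMSO libraries (5.34, 4.56 and 4.55 CPM), 0, 0 and 2 with abemaciclib, 2 in each library with fulvestrant and 0 in all 3 with the combination. Over each group its level was lower than DMSO by 32.04-fold with abemaciclib (95% counting interval 8.52 to 270), by 9.49-fold with fulvestrant (4.13 to 26.8) and by at least 22.4-fold with the combination, taking 3 counts over the group as the floor. Both abemaciclib counts came from replicate 3. Leaving out abemaciclib replicate 1 or 2 gave 20.17-fold and 21.3-fold, and without replicate 3 the group was at 0 counts, at least 15.1-fold lower.

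E2F8 (ENSG00000129173, chr11:19224063-19241620, minus strand) was at 12.5, 13.1 and 14.9 CPM with DMSO (42, 69 and 72 counts), and had 5, 2 and 3 counts with abemaciclib, 4, 3 and 5 with fulvestrant and 0, 2 and 1 with the combination. Its level was 18.3-fold lower with abemaciclib (95% counting interval 9.74 to 38.85), 13.6-fold lower with fulvestrant (7.58 to 26.7) and 64.05-fold lower with both (21.6 to 314). Without combination replicate 2, which held 2 of the 3 counts, the last ratio was 126.4 (22.4 to 5021). It was 45.2 (15.2 to 221) without combination replicate 1 and 61.1 (16.7 to 508) without combination replicate 3. These intervals cover counting error only. The folds of E2F7 and E2F8 against DMSO are given as a description, with no test. E2F8 also overlaps an antisense gene, CSRP3-AS1, on the opposite strand.

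The DP partners separated. TFDP1 (ENSG00000198176, chr13:113584721-113641473, plus strand) was at 79.8, 93.1 and 95.3 CPM with DMSO and at 42.2, 46.6 and 46.75 with abemaciclib, 47.2, 52.5 and 34.0 with fulvestrant and 42.1, 40.7 and 39.6 with the combination. All 9 treated libraries lay below all 3 DMSO libraries, and the drug groups lay close to one another. The log2 changes were -0.99 ± 0.12 (adjusted p = 1.73e-07), -1.02 ± 0.12 (7.14e-08) and -1.14 ± 0.12 (7.14e-09).

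TFDP2 (ENSG00000114126, chr3:141944428-142149544, minus strand) was at 48.4, 44.85 and 40.3 CPM with DMSO, 54.2, 37.1 and 48.3 with abemaciclib, 35.1, 32.7 and 43.1 with fulvestrant and 37.5, 37.6 and 30.3 with the combination. The first 2 drug groups overlapped DMSO and were not called (0.07 ± 0.14 and -0.26 ± 0.14, adjusted p = 0.709 and 0.135), though fulvestrant was called without fulvestrant replicate 3 (-0.38). The combination lay just below DMSO, at -0.34 ± 0.14 (adjusted p = 0.0426). That call was lost with DESeq2 (-0.36), with upper-quartile scaling (-0.31) and without DMSO replicate 1 (-0.28), DMSO replicate 2 (-0.33), abemaciclib replicate 3 (-0.34), fulvestrant replicate 1 (-0.33), combination replicate 1 (-0.38) or combination replicate 3 (-0.23). TFDP3, a testis-restricted relative of the DP genes, had 0 counts in all 12 libraries.

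**Figure D2:**
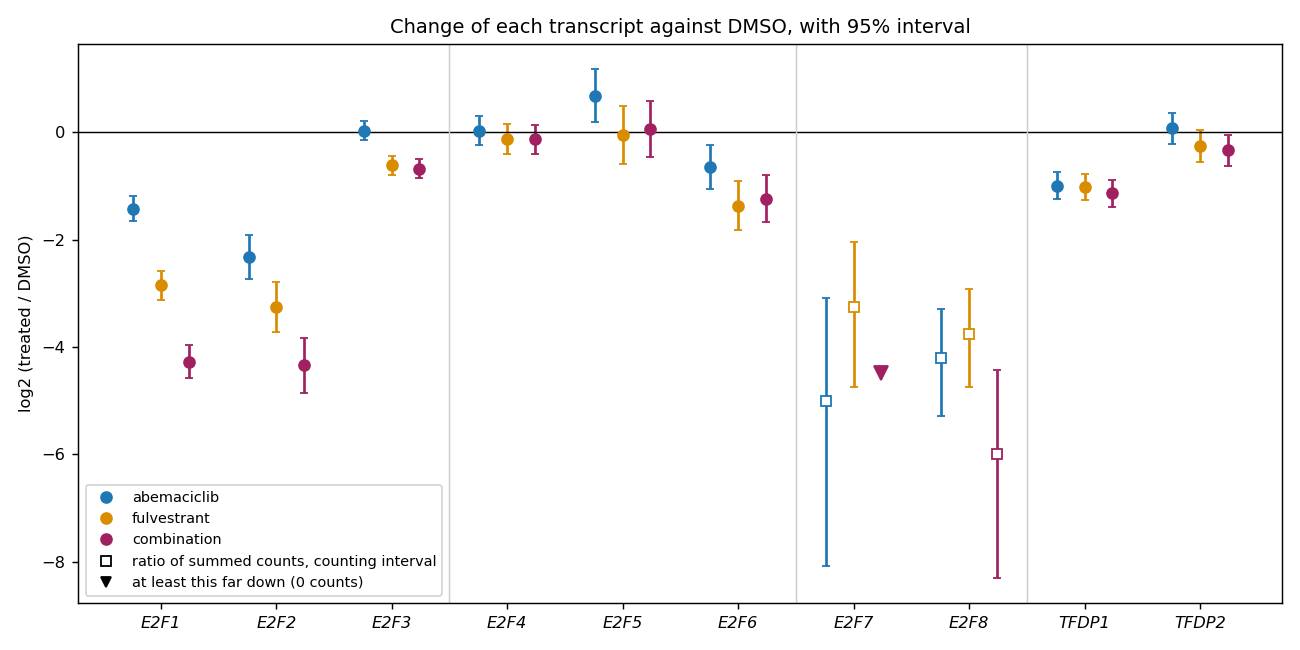
Log2 change of each member against DMSO for the 3 drug groups, with 95% intervals from the model (filled circles) or from summed counts (open squares), and a lower bound where the group had 0 counts (triangle). E2F1 steps down from abemaciclib to fulvestrant to the combination, E2F4 lies on the line of no change, and TFDP1 falls to about the same level in all 3 groups.

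Because 3′ reads arise near the transcript end, counts of different genes were set side by side without division by length. The make-up of the E2F pool was read on that CPM scale. How evenly the 3′ ends of the genes were captured was not checked. E2F5 and E2F8 also overlap genes on the opposite strand, so shares between genes are approximate. The summed level of E2F1 to E2F8 was 361 ± 17.4 CPM (SD, n = 3) with DMSO, 248.7 ± 5.94 with abemaciclib, 156 ± 13.8 with fulvestrant and 141 ± 6.44 with the combination, and only the last 2 groups overlapped. E2F3 supplied most of what was left. It made up 50.7% ± 1.88 of activator counts with DMSO, 76.9% ± 2.00 with abemaciclib, 84.0% ± 1.83 with fulvestrant and 92.7% ± 0.911 with both, with no overlap between groups.

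The 3 activators together held 78.8% ± 1.91 of E2F counts with DMSO and 77.1% ± 0.443 with abemaciclib, ranges that overlapped, then 71.9% ± 1.17 with fulvestrant and 69.3% ± 3.45 with the combination. The canonical repressors went from 16.1% ± 2.12 to 22.5% ± 0.378, 27.1% ± 1.24 and 30.6% ± 3.34, and the atypical pair from 5.07% ± 0.253 to 0.362% ± 0.170, 0.967% ± 0.146 and 0.144% ± 0.151. So the repressors took a larger share although none but E2F5 rose, and that one only with abemaciclib. With 3 libraries a group an exact permutation test of a share cannot go below p = 0.1, so the shares are given without a test.

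The DP side shifted too. There were 2.03 ± 0.359 TFDP1 counts for each TFDP2 count with DMSO, and 1.00 ± 0.2404, 1.25 ± 0.416 and 1.17 ± 0.121 in the drug groups, all below the DMSO range of 1.65 to 2.36. E2F counts exceeded DP counts 2.695 ± 0.0457 times with DMSO and 2.72 ± 0.190 times with abemaciclib, against 1.91 ± 0.0745 times with fulvestrant and 1.87 ± 0.224 times with both.

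**Figure D3:**
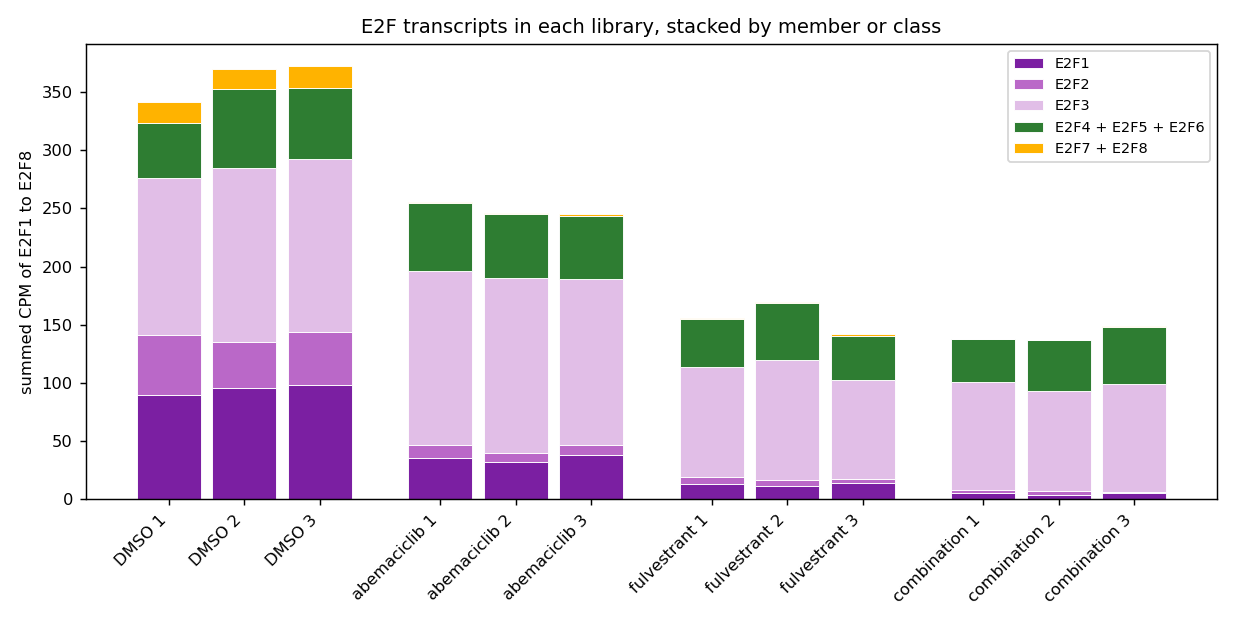
Summed CPM of E2F1 to E2F8 in each library, stacked by activator and by class. The E2F3 segment stays similar from DMSO to abemaciclib while the E2F1 and E2F2 segments shrink, and the atypical segment is a thin line at most outside the DMSO libraries.

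Setting the drugs against each other, fulvestrant left 5 members below abemaciclib (E2F1, E2F2, E2F3, E2F5 and E2F6) and 0 above, where 15.5% of all genes were lower and 13.4% higher. The log2 difference was -1.42 ± 0.14 for E2F1 (adjusted p = 1.31e-08) and -0.65 ± 0.09 for E2F3 (1.68e-06). TFDP1 was at 44.5 ± 9.53 against 45.2 ± 2.57 CPM (-0.03 ± 0.13, 95% interval -0.29 to 0.24, adjusted p = 0.899). The calls of E2F2, E2F5 and E2F6 were lost without abemaciclib replicate 1 (-0.80, -0.74 and -0.53) or fulvestrant replicate 3 (-0.69, -0.56 and -0.50), and that of E2F5 also without abemaciclib replicate 2 (-0.72), abemaciclib replicate 3 (-0.73) or fulvestrant replicate 1 (-0.67). TFDP2 would be called without abemaciclib replicate 2 (-0.47) or fulvestrant replicate 3 (-0.46).

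Adding fulvestrant to abemaciclib lowered 6 members (E2F1, E2F2, E2F3, E2F5, E2F6 and TFDP2) and raised 0, against 17.7% and 15.9% of all genes. E2F1 fell a further 7.20-fold (-2.85 ± 0.17, adjusted p = 1.28e-13), E2F2 4.04-fold (-2.01 ± 0.32, 1.14e-05) and E2F3 1.63-fold (-0.71 ± 0.09, 2.72e-07). The calls of E2F5 (-0.62, adjusted p = 0.0432), E2F6 (-0.58, 0.0467) and TFDP2 (-0.41, 0.0240) passed by little. That of E2F5 was lost with DESeq2 (-0.63) and without abemaciclib replicate 1 (-0.63), 2 (-0.61) or 3 (-0.62) or combination replicate 1 (-0.43) or 2 (-0.67). That of E2F6 was lost with DESeq2 (-0.59), with libraries thinned to the smallest total (-0.54), with the replicate number as a block (-0.59) and without DMSO replicate 2 (-0.58) or 3 (-0.58), abemaciclib replicate 1 (-0.40) or 3 (-0.64), fulvestrant replicate 1 (-0.58) or combination replicate 1 (-0.42) or 2 (-0.54). That of TFDP2 was lost without abemaciclib replicate 1 (-0.28) or 3 (-0.39) or combination replicate 3 (-0.31). TFDP1 was not called (-0.15 ± 0.13, adjusted p = 0.405).

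Adding abemaciclib to fulvestrant lowered 1 member, E2F1, and raised 0, where 1.63% of all genes were lower and 0.297% higher. E2F1 fell 2.69-fold (-1.43 ± 0.19, adjusted p = 1.49e-05), from 13.1 ± 1.16 to 4.91 ± 1.07 CPM. E2F2, at 4.72 ± 1.495 against 2.22 ± 1.27 CPM, missed the threshold (-1.08 ± 0.37, adjusted p = 0.163) and passed it without fulvestrant replicate 3 (-1.32) or combination replicate 2 (-1.62), giving 2 members. E2F8 had 12 counts over the fulvestrant group and 3 over the combination, a 4.72-fold ratio with a counting interval from 1.27 to 26.1 and an adjusted p of 0.205 in the model. That ratio was 9.32 (1.38 to 398.5) without combination replicate 2 and 4.50 (1.003 to 41.4) without combination replicate 3. Without combination replicate 1 it was 3.33 (0.900 to 18.4), an interval that includes no change. The 95% intervals of E2F3 (-0.24 to 0.12), E2F4 (-0.29 to 0.28) and TFDP1 (-0.38 to 0.15) included 0.

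The interaction, the abemaciclib effect with fulvestrant minus the effect without it, tests whether the 2 drugs added up on the log2 scale. E2F1 responded to abemaciclib by -1.42 ± 0.11 without fulvestrant and by -1.43 ± 0.19 with it, a difference of -0.0031 ± 0.23 (95% interval -0.48 to 0.47, adjusted p = 0.994). TFDP1 responded by -0.99 ± 0.12 alone and by -0.12 ± 0.13 on top of fulvestrant, a positive interaction of 0.87 ± 0.18 (adjusted p = 6.88e-04). E2F2 responded by -2.33 ± 0.20 and by -1.08 ± 0.37, an interaction of 1.25 ± 0.44 (adjusted p = 0.0425). These were the 2 positive calls among members, with 0 negative, where 9.49% of all genes tested were positive and 11.6% negative.

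The TFDP1 interaction held with each library left out. That of E2F2 was lost when all libraries were thinned to the smallest total (1.12) and without DMSO replicate 1 (1.15), DMSO replicate 3 (1.24), abemaciclib replicate 2 (1.15), abemaciclib replicate 3 (1.22), fulvestrant replicate 2 (1.26), fulvestrant replicate 3 (1.01), combination replicate 1 (1.25) or combination replicate 2 (0.70). E2F6 missed the threshold at 0.79 ± 0.32 (adjusted p = 0.0803) and passed it without DMSO replicate 1 (0.90), abemaciclib replicate 1 (0.97), fulvestrant replicate 2 (0.96) or combination replicate 1 (0.93). For E2F7 and E2F8, with 0 and 3 counts over the combination group, the interaction was not called (adjusted p = 0.713 and 0.219), and its size is not given because it rests on these counts.

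**Figure D4:**
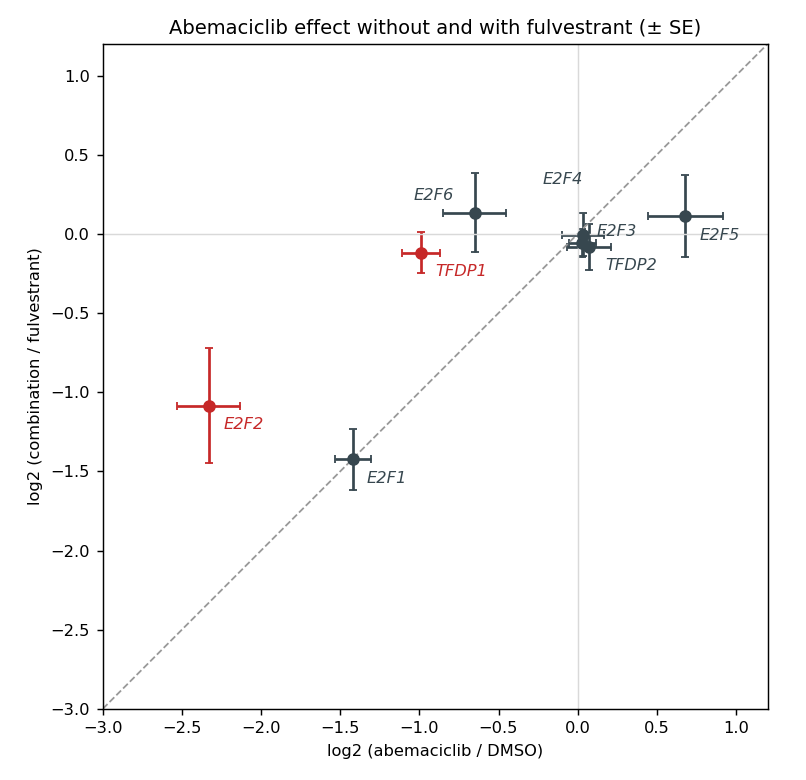
Log2 effect of abemaciclib without fulvestrant (horizontal) and with it (vertical), ± SE, for the 8 members with enough counts, with the line of equal effects dashed and the members with a called interaction in red. E2F1 lies on the line, while TFDP1 and E2F2 lie above it.

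The genes whose profile over the 12 libraries was most like each member were found among 8460 genes with at least 10 CPM, by Pearson's r of log2 CPM. The 12 points share the 4 treatments, so r mostly follows the group means and is a description. For E2F1 they were TPX2, CDCA8 and FANCD2 (r = 0.994, 0.992 and 0.991), a spindle assembly factor, a chromosomal passenger protein and a DNA crosslink repair protein. For E2F2 they were PSMC3IP, LRR1 and RAD51AP1 (0.989, 0.984 and 0.983), of which the first and last act in homologous recombination.

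E2F3 went instead with the ribosomal protein genes RPL23 and RPL13 and with SCD, a fatty acid desaturase (0.988, 0.986 and 0.984). E2F6 was closest to MRPL24, UQCRH and SRSF1 (0.966, 0.962 and 0.949), and TFDP1 to BUB3, SKA2 and GNPNAT1 (0.980, 0.977 and 0.973). For E2F4, E2F5 and TFDP2 the nearest genes were less alike, TOM1L1 (0.863), SREBF1 (0.889) and NACC1 (0.873).

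In the lists of E2F regulators and targets, the largest rise and fall are named among genes with at least 10 CPM in either group compared. The counts against DMSO in these lists stand beside the shares of all genes tested. With abemaciclib 20.7% were lower and 20.5% higher, with fulvestrant 25.7% and 25.3%, and with the combination 27.5% and 27.7%. The pocket proteins, which bind the E2Fs, split. RBL1, which encodes p107 and is itself an E2F target, fell from 32.6 ± 0.8002 CPM with DMSO to 8.46 ± 0.821 with abemaciclib, 7.61 ± 1.13 with fulvestrant and 5.24 ± 2.35 with both (-1.93 ± 0.19, -2.08 ± 0.20 and -2.63 ± 0.21, adjusted p = 5.58e-09, 1.41e-09 and 2.10e-11). RB1 stood at 60.3 ± 12.2, 57.6 ± 5.67, 65.8 ± 17.9 and 47.9 ± 7.54 CPM and RBL2, which encodes p130, at 49.5 ± 8.33, 56.4 ± 2.44, 46.9 ± 3.82 and 49.9 ± 4.87 CPM, and neither was called in any comparison. RBL1 also showed a positive interaction (1.39 ± 0.33, adjusted p = 0.00309), as TFDP1 and E2F2 did.

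Of 13 G1 regulators listed, which are cyclins, CDKs, CDK inhibitors and the phosphatase CDC25A, 11 were tested. With abemaciclib 8 fell and 2 rose, with fulvestrant 9 fell and 1 rose and with the combination 10 fell and 1 rose, with medians of -0.62, -1.37 and -1.37. CCND1, cyclin D1, rose from 617 ± 5.64 to 1327 ± 35.55 CPM with abemaciclib (1.10 ± 0.07, adjusted p = 1.20e-12) and was at 195 ± 9.88 with fulvestrant and 232 ± 14.9 with both (-1.66 ± 0.07 and -1.41 ± 0.07). CDKN1A, the CDK inhibitor p21, rose in all 3 groups (1.59 ± 0.12, 3.10 ± 0.11 and 2.91 ± 0.11). CDKN2C, the CDK4 and CDK6 inhibitor p18, had the largest falls of the list (-3.42 ± 0.28, -3.08 ± 0.28 and -4.40 ± 0.32). It passed the filter on low counts through the DMSO libraries, at 20.2 CPM, and is included in the counts and medians of the list. The drug groups were at 1.82, 2.33 and 0.905 CPM, so the size of these falls rests on few reads. CCND2 and CDK6 had at most 1 and 3 counts in any library and were not tested.

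Among 7 cyclins and ubiquitin ligase subunits that act on E2F proteins, 5 fell in each drug group and 2, 1 and 2 rose (medians -1.37, -1.31 and -1.35). CCNA2, cyclin A2, whose kinase partner ends E2F1 binding in S phase, fell from 94.1 ± 3.17 to 8.38 ± 0.376 CPM with abemaciclib (-3.48 ± 0.15, adjusted p = 2.68e-16), and had 2 counts over the combination group against 1267 with DMSO, a 665-fold ratio with a counting interval from 184 to 5499. CDC20, an activator of the anaphase-promoting complex, had the largest fall with fulvestrant (-3.80 ± 0.21). FZR1, the other activator of that complex, rose by 0.41 ± 0.12 with abemaciclib (adjusted p = 0.00917) and by 0.39 ± 0.12 with both. SKP1, a subunit of SCF ubiquitin ligases, rose by 0.26 ± 0.07, 0.31 ± 0.07 and 0.45 ± 0.07 in the 3 groups.

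The DREAM complex, in which MuvB proteins join p130 and E2F4 or E2F5 to repress cell cycle genes, was covered by a list of 8 genes. MYBL2, FOXM1 and the kinase DYRK1A in that list are not subunits of the repressor. Of the 7 tested, 5, 6 and 5 fell and 0 rose (medians -0.46, -0.83 and -0.86). With abemaciclib LIN52 (-0.68) and RBBP4 (-0.46) of MuvB fell, while LIN9 (-0.27) and LIN54 (-0.12) were not called. With the combination LIN9 (-1.305), LIN52 (-0.71) and LIN54 (-0.86) fell and RBBP4 (-0.17) was not called. With fulvestrant all of these MuvB genes fell. FOXM1, a partner of MuvB in activating mitotic genes, had the largest fall with abemaciclib (-2.05 ± 0.16, adjusted p = 6.88e-11). MYBL2, the B-Myb partner and also an S phase target, had the largest fall with fulvestrant (-3.40 ± 0.12) and went to 1 count over the combination group against 3439 with DMSO, a 3611-fold ratio with a counting interval from 648 to 142667.

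The partners of E2F6 in the polycomb complex PRC1.6, 14 genes all tested, moved less. They gave 8 falls and 1 rise with abemaciclib and 7 falls and 3 rises with fulvestrant and with the combination, with medians of -0.33, -0.37 and -0.31. The largest falls at this level were those of YAF2 with abemaciclib (-0.87 ± 0.15), WDR5 with fulvestrant (-0.81 ± 0.11) and HDAC2 with both (-0.70 ± 0.10). EHMT1, a histone methyltransferase, had the largest rise in all 3 groups (0.31 ± 0.10, 0.53 ± 0.10 and 0.55 ± 0.10). The interaction was positive for 7 of the 14 and negative for 0, against 9.49% and 11.6% of all genes.

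The list of 25 S phase target genes fell as a whole against DMSO: 25 of 25 were lower in each of the 3 drug groups, with median log2 changes of -1.76, -2.59 and -3.63. RRM2, the small subunit of ribonucleotide reductase, had the largest fall with abemaciclib, from 217 ± 7.10 to 20.8 ± 0.794 CPM (-3.38 ± 0.11, adjusted p = 7.35e-19). TYMS, thymidylate synthase, had the largest with fulvestrant, to 5.603 ± 2.63 from 81.15 ± 10.3 CPM (-3.89 ± 0.29, adjusted p = 3.33e-07), and had 0 counts with the combination, at least 387-fold lower than DMSO.

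On top of abemaciclib, fulvestrant lowered 21 of the 25 targets (median -1.51) and raised 0, against 17.7% and 15.9% of all genes. On top of fulvestrant, abemaciclib lowered 12 (median -1.04, or -0.73 with the 2 genes at 0 counts set to their bound) and raised 0. Of all genes, 1.63% were lower and 0.297% higher there, and among the members only E2F1 was called in that comparison. Fulvestrant against abemaciclib gave 16 lower and 1 higher, against 15.5% and 13.4% of all genes. The interaction was positive for 11 targets and negative for 2, MYBL2 and RRM2, which had 1 and 2 counts over the combination group. Of all genes tested, 9.49% were positive and 11.6% negative. The target list was drawn up with earlier results of these data known, and it shares MYBL2 with the DREAM list and CCNE1, CCNE2 and CDC25A with the G1 list, so its counts are no independent evidence of direction.

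**Figure D5:**
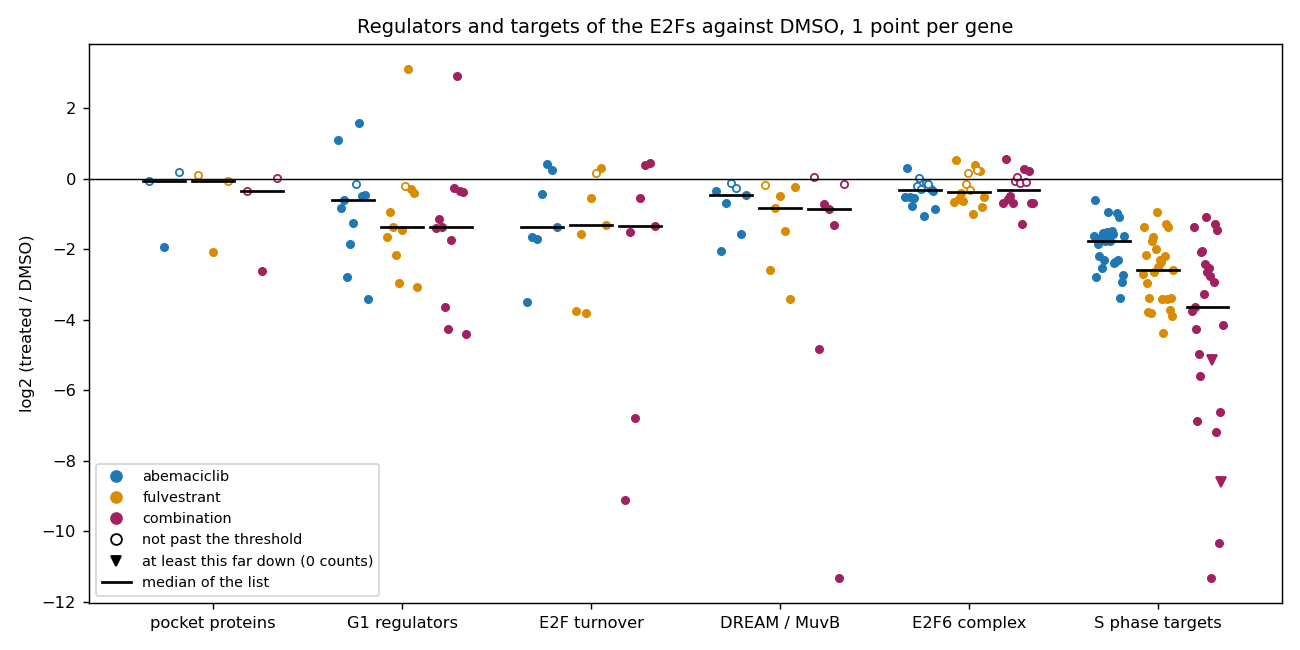
Log2 change against DMSO of the tested genes in 6 lists of E2F regulators and targets, 1 point per gene, filled where the test was passed, with the median of each list as a bar and triangles for genes with 0 counts in the combination. The S phase targets are all below 0 and lowest with the combination, while the E2F6 complex partners lie nearer to 0.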

How the data were processed

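CAMA-1 cells were profiled by QuantSeq FWD 3′ RNA-seq in 12 libraries. The authors trimmed reads, aligned them to hg38 with STAR and deposited the raw counts per gene from featureCounts 2.0.1 (tool, build and version also per the submitters' processing notes), with no normalization. The strand setting of the counting is not given in the sources used here.

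Here, 44 rows without a gene name, which held 0 reads, were left out. Genes were kept by edgeR's filter (minimum count 10, minimum total 15), and all 4 groups were fitted together without covariates, with TMM scaling and a prior count of 2, by edgeR's quasi-likelihood test (edgeR 4.0.16, limma 3.58.1, R 4.3.3). Adjusted p-values are Benjamini-Hochberg over all genes tested, at a threshold of 0.05. SEs and intervals of log2 changes were derived from the change and its F statistic, and are too narrow for large falls to few counts. CPM values use TMM-scaled library sizes, and totals of 3299119 to 5164667 counts limit what could be seen of genes near 0. Ratios of summed counts carry exact 95% intervals, and floors take 3 counts. Both cover counting error only.

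Members and gene lists were chosen with earlier results of these data known. All members were described. From each list the largest rise and fall past the threshold with at least 10 CPM were named, besides RB1, RBL1, RBL2 and CCND1 and the 3 genes most like each member. Genes given further are SKP1 and FZR1 where 5 or fewer genes rose, and RRM2 and MYBL2 in the interaction. Some results of list genes are not reported here. The scripts were tested on simulated data with known changes. DESeq2 1.42.0, upper-quartile scaling, other filters, thinning, a replicate block, only the groups compared and leaving out each library were the alternatives.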

Additional observations from a re-analysis of the deposited data

Results flagged for a closer look

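The abemaciclib effect differed between cells with and without fulvestrant for 2 members, by the interaction term of the model, where 9.49% of all genes tested were positive and 11.6% negative. For TFDP1 the difference was 0.87 ± 0.18 on the log2 scale (95% interval 0.51 to 1.24, edgeR adjusted p = 6.88e-04): the gene fell by 0.99 on the log2 scale without fulvestrant and was at -0.12 ± 0.13 with it. For E2F2 it was 1.25 ± 0.44 (95% interval 0.35 to 2.14, edgeR adjusted p = 0.0425), from -2.33 ± 0.20 to -1.08 ± 0.37, and rests in the combination on 31 counts over 3 libraries. The E2F2 call was lost with libraries thinned to the smallest total (1.12) and in 8 of the 12 settings that left out 1 library, with its lowest value without combination replicate 2 (0.70).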

How the results depend on the processing

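Of 1363 pairs of a member's log2 change and an alternative, 1270 kept their direction and their side of the threshold, 53 lost the call, 9 gained it and 31 changed sign, each of the last in a value that was not called. Changes of sign came with thinning to the smallest total for E2F5 with fulvestrant (0.025), with upper-quartile scaling for E2F4 in the combination against fulvestrant (0.0017) and, under the replicate block, for the E2F1 interaction (0.0016). Leaving out 1 library in turn, the values that changed sign ran from -0.016 to 0.058 (E2F3), -0.066 to 0.095 (E2F4) and -0.058 to 0.21 (TFDP2) for abemaciclib against DMSO, from -0.29 to 0.22 (E2F5) for fulvestrant and from -0.11 to 0.32 (E2F5) for the combination against DMSO. They ran from -0.13 to 0.011 (E2F3), -0.060 to 0.032 (E2F4), -0.067 to 0.36 (E2F5), -0.11 to 0.31 (E2F6), -0.29 to 0.011 (TFDP1) and -0.16 to 0.046 (TFDP2) for the combination against fulvestrant, from -0.16 to 0.14 (TFDP1) for fulvestrant against abemaciclib, and from -0.13 to 0.15 (E2F1), -0.11 to 0.055 (E2F4) and -0.032 to 3.18 (E2F7) for the interaction. Keeping only genes with at least 10 counts in every library left 4 members called with abemaciclib, 4 with fulvestrant, 5 with the combination and 1 in the interaction, since fewer members were then tested, and thinning also left 1 in the interaction. Without 1 library the members called ranged from 3 to 6 (combination against abemaciclib), 1 to 2 (combination against fulvestrant), 2 to 5 (fulvestrant against abemaciclib) and 1 to 3 (interaction). Over all genes, the combination against fulvestrant gave 91 calls with that filter, 125 with only the groups compared, 588 without fulvestrant replicate 3 and 146 without combination replicate 3, and the cause was not tested. Libraries of one replicate number showed no clear common deviation (r from -0.21 to 0.12). Counting noise also pulls such r towards 0, so the check cannot exclude a weak pairing. The replicate block left 5 members called for the combination against abemaciclib in place of 6, losing E2F6 (-0.59), and changed no other count of members. Depth limits E2F7 and E2F8 in every drug group and E2F2 in the combination.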

Other observations

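Among 7 E2F-linked apoptosis genes, 5 were tested. BBC3, which encodes the BH3-only protein PUMA, rose from 80.0 ± 13.5 CPM with DMSO to 135.5 ± 4.35 with abemaciclib, 260.5 ± 12.6 with fulvestrant and 289.7 ± 31.05 with both (log2 changes 0.75 ± 0.10, 1.69 ± 0.10 and 1.85 ± 0.10, edgeR adjusted p = 1.25e-06, 1.16e-13 and 1.14e-14). APAF1, the scaffold of the apoptosome, fell with abemaciclib (-0.71 ± 0.23, edgeR adjusted p = 0.0140) and with both drugs (-0.88 ± 0.23, 0.00195). TP73 and PMAIP1 had at most 6 and 8 counts in any library and were not tested. The 8 germline genes that E2F6 represses in other cells had at most 5 counts in any library and were not tested either. Whether the lower E2F6 transcript bears on them was not tested.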
